A study of Homo sapiens with 8 samples.

Results

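The 8 genes of prostaglandin metabolism followed through the AREG knockdown experiment were PLA2G4A, PTGS1, PTGS2, PTGES, PTGES2, PTGES3, PTGER4 and HPGD. They were taken by gene symbol from a table of 21510 genes, and all 8 symbols were found. Of the 8, 6 passed the filter on low values (at least 1 RPKM, reads per kilobase of gene scaled to the mapped reads of the library, in at least 2 libraries), as did 12567 genes of the whole table. PTGER4 and HPGD stayed below 1 RPKM in each of the 8 libraries.

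The libraries were made from poly(A) RNA of subconfluent N/TERT-2G keratinocytes, a human line that grows without limit in culture, kept in serum-free medium. In every group the cells carried a Tet-inducible AREG shRNA, which targets the transcript of amphiregulin, a ligand of the EGF receptor. After 60 h, 3 libraries came from cells given neither agent (control), 3 from cells given tetracycline at 1 µg/ml (Tet), and 2 from cells given tetracycline at the same dose together with EGF at 20 ng/ml (Tet+EGF). The labels name batches: 2 control and 2 Tet libraries formed batch 1, and 1 control, 1 Tet and both Tet+EGF libraries formed batch 2. The hairpin was always induced by tetracycline, so drug and hairpin cannot be told apart, and the labels do not say whether the cells were 1 clone. They also do not say that replicates were separate cultures. The p-values therefore measure the spread between these libraries alone, which may be technical. In bulk RNA, fewer cells of a kind and less RNA per cell cannot be told apart.

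Prostaglandins are made from arachidonic acid that phospholipase A2 enzymes cut from membrane lipids. A cyclooxygenase, PTGS1 or PTGS2, turns it into prostaglandin H, and a terminal synthase then makes the final product, prostaglandin E in the case of PTGES, PTGES2 and PTGES3. Prostaglandin E signals through the EP receptors, of which PTGER4 encodes one, and HPGD begins its breakdown. In epidermis, keratinocytes are a main source of prostaglandin E, and PTGS2 is a classical inducible gene of wounded, irradiated or growth factor-treated keratinocytes, while PTGS1 is regarded as constitutive.

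In RefSeq's GRCh38.p14 annotation, PTGS2 (chr1:186671791-186680423) and PLA2G4A (chr1:186828949-186988981) lie near each other. PTGS1 (chr9:122370533-122395703), PTGES2 (chr9:128120693-128128440) and PTGES (chr9:129738349-129753042) share chromosome 9, PTGES3 lies on chromosome 12, PTGER4 on 5 and HPGD on 4. The build behind the RPKM table is not stated, so these positions come from RefSeq alone. The genes on which the results turn differ in the sequence around their start sites, shown here for PTGS2, PTGS1 and PTGES, whose changes with Tet differed between batches. The windows run from 250 bases before to 50 bases after the start, as in the RefSeq table for GRCh38.p14, which held a window for each of the 8 genes. Each is written 5′ to 3′ on the strand of the gene, with matches to any of 6 motifs in capitals. The motifs, searched on both strands, were TATAAA (the TATA motif), CGTCA (core of the cyclic AMP response element), CANNTG (E-box), TTNNGCAA (C/EBP), GCGTGGGCG (EGR1) and GGGCGG (GC box).
PTGS2, chr1:186680374-186680673, minus strand: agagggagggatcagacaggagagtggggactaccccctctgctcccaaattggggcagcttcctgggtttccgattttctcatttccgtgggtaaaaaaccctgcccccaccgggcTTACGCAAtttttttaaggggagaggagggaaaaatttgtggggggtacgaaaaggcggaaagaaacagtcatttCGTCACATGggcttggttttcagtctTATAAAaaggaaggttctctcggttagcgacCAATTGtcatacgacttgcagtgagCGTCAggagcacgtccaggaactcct
PTGS1, chr9:122370283-122370582, plus strand: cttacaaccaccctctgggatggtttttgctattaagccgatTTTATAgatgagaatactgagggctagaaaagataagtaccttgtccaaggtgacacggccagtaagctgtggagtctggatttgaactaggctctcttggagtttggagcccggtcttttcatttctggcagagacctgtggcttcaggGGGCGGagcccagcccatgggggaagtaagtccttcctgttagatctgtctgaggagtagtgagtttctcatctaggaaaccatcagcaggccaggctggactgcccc
PTGES, chr9:129752993-129753292, minus strand: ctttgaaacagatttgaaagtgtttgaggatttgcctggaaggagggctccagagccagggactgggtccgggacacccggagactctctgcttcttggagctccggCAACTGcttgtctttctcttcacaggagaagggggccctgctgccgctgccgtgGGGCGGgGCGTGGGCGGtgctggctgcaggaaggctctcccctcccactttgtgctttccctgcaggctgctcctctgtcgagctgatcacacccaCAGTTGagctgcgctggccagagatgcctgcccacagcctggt

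The PTGS2 window held TATAAA 32 bases before the start, CGTCA 58 bases before it in overlap with an E-box, and a C/EBP match 133 bases before it. A second CGTCA lay after the start, at position 25, and a second E-box spanned the start. The PTGES window had no TATAAA. It held GCGTGGGCG 82 bases before the start, in overlap with 1 of its GC boxes, and 2 E-boxes. A window of PTGES2 that is not at the start of the gene also held GCGTGGGCG, 147 bases before its own start. The PTGS1 window at the start of the gene held a GC box 58 bases before the start and TATAAA on the opposite strand 208 bases before it. A second RefSeq window of PTGS1, further downstream, held a GC box alone among the motifs searched. Among all 35116 windows of the table, 11.5% held TATAAA, 24.6% CGTCA, 68.7% an E-box, 10.5% the C/EBP letters, 0.795% GCGTGGGCG and 45.0% a GC box. These matches describe the letters and were not tested as binding sites.

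The targeted gene and the tissue were checked first. AREG was at 316, 202 and 189 RPKM in controls, 6.63, 16.7 and 16.2 with Tet, and 20.9 and 17.4 with Tet+EGF. All 10 keratinocyte markers listed, KRT5 and KRT14 among them, were measured. Their summed level was 22517 to 25426 RPKM in controls, 34817 to 38081 with Tet and 20127 to 20747 with Tet+EGF. With Tet 6 of them rose and 4 fell, where 26.2% of all genes rose and 29.9% fell. The part of these marker changes in the results below was not tested. The labels give an average of 31000000 reads per library, and the depth, estimated from the spacing of low RPKM values, was between 63.5% and 111% of that of control replicate 1. Fold changes below are on the log2(RPKM + 0.5) scale, from a limma model that held group and batch and all 8 libraries, unless a batch is named. A gene is said to rise or fall where its adjusted p was under 0.05 with Benjamini-Hochberg over all 12567 genes, and intervals are 95%.

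In control cells the 3 prostaglandin E synthases spanned a wide range. PTGES3, which encodes the cochaperone p23 and cytosolic prostaglandin E synthase, had a mean of 92.7 ± 10.8 RPKM (SD, n = 3). PTGES2, the membrane-associated synthase, followed at 28.1 ± 1.14 and PTGS2 at 9.36 ± 2.24 (SD, n = 3 each). PLA2G4A, the cytosolic phospholipase A2, had 4.80 ± 0.912, PTGS1 2.93 ± 0.314 and PTGES, the inducible microsomal synthase, 2.71 ± 0.161 (SD, n = 3 each). The ranges of PTGS1 and PTGES overlapped, while each other pair of neighbours in this order was separated. PTGER4 at 0.179 ± 0.0860 and HPGD at 0.0183 ± 0.0163 were lowest (SD, n = 3 each). RPKM is a level per length, so these levels were set side by side between genes, though the gene lengths behind them are not stated.

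**Figure D1:**
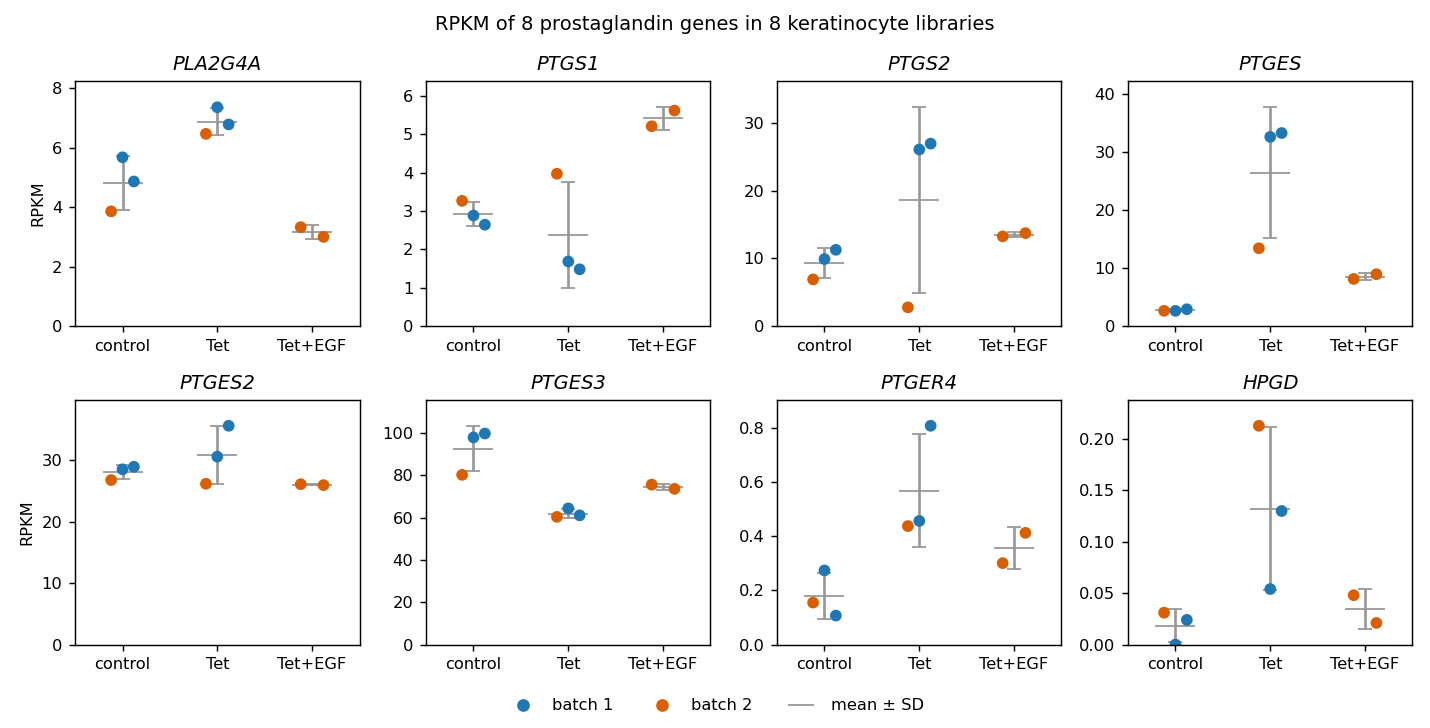
RPKM of the 8 genes (y axis, linear, from 0, a scale of its own for each gene) in the 8 libraries by group, with points coloured by batch and grey bars for the group mean and SD. PTGES is higher in each Tet library than in any control library, while the Tet library of batch 2 lies below the control libraries for PTGS2 at 2.76 RPKM and those of batch 1 lie above them.

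Tet was compared with control to ask which of these genes changed when the hairpin was induced. PTGES rose the most of the 6 tested genes, PLA2G4A rose slightly and PTGES3 fell, while PTGS2 rose in batch 1 and fell in batch 2, and PTGS1 fell in batch 1. In all, 2 of the 6 tested members rose and 1 fell. Among all genes tested, 26.2% rose and 29.9% fell, so a share of this size is near the background. The median log2 fold change of the 6 was 0.29, against -0.04 over all genes.

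PLA2G4A releases arachidonic acid. Control libraries had 3.86, 5.68 and 4.87 RPKM and Tet libraries 6.47, 7.37 and 6.79, which did not overlap. How many of all genes lie apart in this way was not counted, for this or any later comparison. PLA2G4A rose by 0.49 on the log2 scale (SE 0.11, limma adjusted p = 0.00671). Batch 1 gave 0.39 and batch 2 gave 0.68. Among the 3 genes with the most similar pattern over the 8 libraries, ATP1B3, a sodium pump subunit, had Pearson's r of 0.976 and SLC6A11, a GABA transporter, of 0.975. The 3 were taken from 8544 genes with a mean of at least 5 RPKM, and libraries of a group and batch are not independent points.

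PTGS2 did not move one way. Its batch 1 levels were 9.90 and 11.3 RPKM without and 26.1 and 27.0 RPKM with tetracycline. The single pair of batch 2 had 6.89 RPKM without and 2.76 RPKM with it. So both Tet libraries of batch 1 were the highest of the 8 and the Tet library of batch 2 the lowest. Within batch 1 alone PTGS2 rose by 1.29 (SE 0.09, limma adjusted p = 8.69e-05), where 28.7% of all genes rose and 29.3% fell. In a fit with a mean for each combination of group and batch, PTGS2 fell within batch 2 by 1.18 (SE 0.11, limma adjusted p = 0.000184), where 23.1% of genes rose and 32.8% fell. That value rests on 1 library a side, whose spread is assumed to equal that of the replicated combinations. The gap between the batches, batch 2 minus batch 1, was -2.47 (SE 0.14, interval -2.80 to -2.14, limma adjusted p = 0.000422), in a test that called 26.7% of all genes. The pooled value of 0.47 (SE 0.45, limma adjusted p = 0.403) averages these opposite changes.

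PTGS1, the other cyclooxygenase, also differed between the batches. Its levels in batch 1 were 2.88 and 2.64 RPKM without and 1.68 and 1.48 RPKM with tetracycline. Those of batch 2 were 3.27 and 3.97 RPKM. PTGS1 fell by 0.65 in batch 1 alone (SE 0.13, limma adjusted p = 0.00614), and its value of 0.25 in batch 2 did not pass (SE 0.15, limma adjusted p = 0.189). The gap between the batches passed at 0.90 (SE 0.18, limma adjusted p = 0.0131), and the pooled value of -0.35 did not (SE 0.18, limma adjusted p = 0.146). PTGS2 thus made up 67.9%, 77.5% and 81.0% of the summed RPKM of the pair in controls. The share was 93.9% and 94.8% with Tet in batch 1 and 41.0% with Tet in batch 2. The Tet library of batch 2 was the single library with more PTGS1 than PTGS2. It also had the lowest AREG level, 6.63 RPKM against 16.7 and 16.2 in the other Tet libraries, and the part of that difference in these results was not tested.

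**Figure D2:**
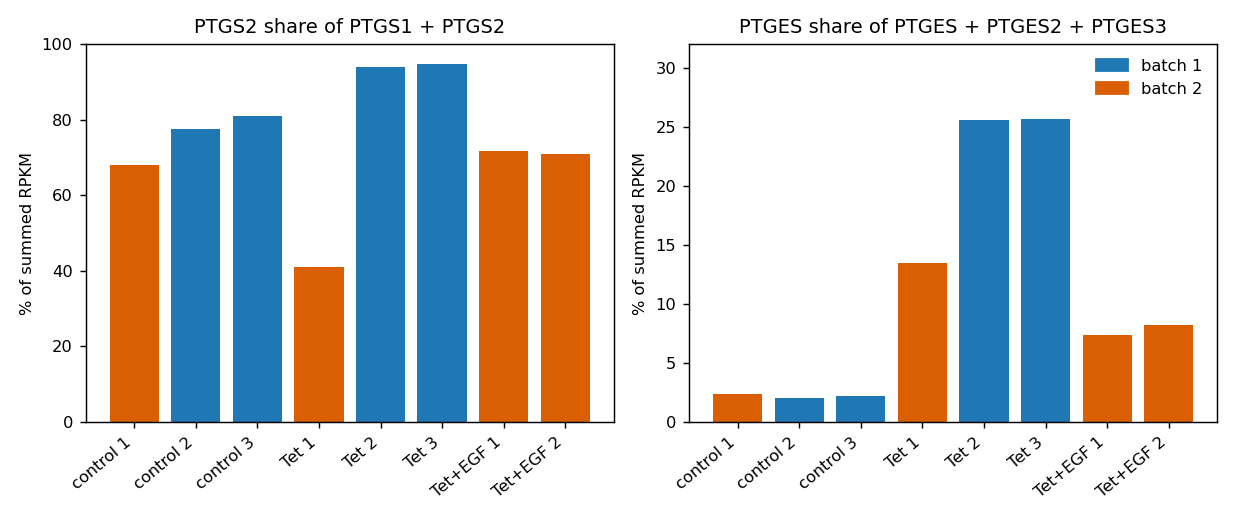
Share of PTGS2 in the summed RPKM of PTGS1 and PTGS2 (left, % on an axis from 0 to 100) and of PTGES in that of the 3 prostaglandin E synthases (right, % on an axis that ends at 32), 1 bar per library coloured by batch. The PTGS2 share is lowest in the Tet library of batch 2 at 41.0%, and the PTGES share is above 13% in the Tet libraries and below 3% in the controls.

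PTGES, which acts downstream of PTGS2, rose in both batches. Control libraries had 2.62, 2.62 and 2.90 RPKM, the Tet library of batch 2 had 13.4 and those of batch 1 had 32.6 and 33.3. No Tet library overlapped the controls. PTGES rose by 2.96 on the log2 scale (SE 0.23, interval 2.42 to 3.50, limma adjusted p = 7.24e-05), or 7.78-fold. The rise was 3.36 for batch 1 against 2.16 for batch 2, a gap of -1.21 that passed (SE 0.14, limma adjusted p = 0.00244). PTGES went from 2.03% to 2.39% of the summed RPKM of the 3 synthases in the controls to 13.4% in batch 2 and 25.6% in both libraries of batch 1. The ratio of PTGES to PTGS2 RPKM was between 0.257 and 0.380 in controls, 1.25 and 1.23 with Tet in batch 1 and 4.86 with Tet in batch 2. The genes with the most similar pattern were ARHGAP27, a GTPase-activating protein (r = 0.996), CLDN4, a tight junction claudin (r = 0.995), and SLC31A2, a copper transporter (r = 0.993).

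The other synthases changed less. PTGES3 went from 80.3, 98.0 and 99.8 RPKM without to 60.4, 64.4 and 61.1 RPKM with tetracycline, and the groups lay apart. PTGES3 fell by 0.57 on the log2 scale (SE 0.07, limma adjusted p = 0.000558), by 0.65 for batch 1 and 0.41 for batch 2. GENCODE v29 lists 5 PTGES3 pseudogenes, 0 of which had a row of their own in the table, and how reads shared with them were counted is not stated. The nearest patterns were those of MPP6 (r = 0.994), SMURF2, a ubiquitin ligase (r = 0.992), and the cytokine gene IL24 (r = 0.990). PTGES2 ranged from 25.9 to 35.6 RPKM over the 8 libraries, the narrowest span of the 8 genes by the ratio of highest to lowest, and did not pass at 0.12 (interval -0.08 to 0.32, limma adjusted p = 0.261). The summed RPKM of the 3 synthases was 110, 129 and 132 in the controls and 100, 128 and 130 in the Tet libraries, ranges that overlapped.

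The receptor and the breakdown enzyme stayed low. PTGER4, the gene of the EP4 receptor, had 0.155, 0.274 and 0.107 RPKM without and 0.438, 0.457 and 0.809 RPKM with tetracycline. With no filter on low values its log2 fold change was 0.64 (limma adjusted p = 0.0190). HPGD, which oxidises prostaglandins to inactive ketones, was at 0.0310, 0 and 0.0240 RPKM without and 0.213, 0.0540 and 0.130 RPKM with tetracycline, and without the filter it was at 0.28 (limma adjusted p = 0.0217). Neither gene overlapped between the groups, a trait whose share over all genes was not counted. At the stated average depth and the longest GENCODE coding transcript of 3.027 kb, the HPGD values correspond to at most about 20.0 reads in a library and those of PTGER4, at 3.848 kb, to between 12.8 and 96.5. At values this low the pseudocount weighs on the log2 values, so they are not turned into folds.

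**Figure D3:**
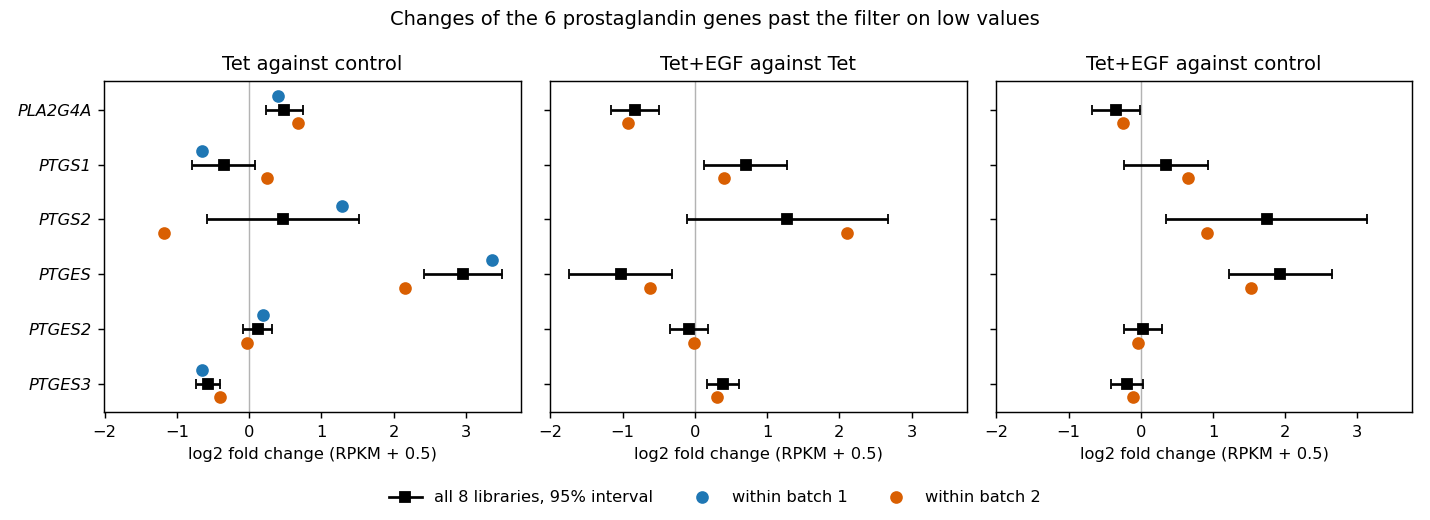
Log2 fold changes (x axis) of the 6 members past the filter in the 3 comparisons, with black squares and 95% intervals for the model of all 8 libraries and coloured points for the value within each batch. PTGS2 is at 1.29 in batch 1 and -1.18 in batch 2 for Tet against control, and PTGES lies right of 2 in both.

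The Tet+EGF libraries were set against the Tet libraries to see what changed with added EGF under the induced hairpin. PLA2G4A fell and PTGES3 rose, so 1 of 6 members rose and 1 fell, beside 9.82% and 9.15% of all genes. Both Tet+EGF libraries were in batch 2, and the Tet group had 1 library there. Within batch 2, 3 members rose and 2 fell, where 19.7% of all genes rose and 14% fell.

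PLA2G4A was at 3.33 and 3.00 RPKM with EGF, below each of the 3 Tet libraries and each of the 3 controls. PLA2G4A fell by 0.83 against Tet (SE 0.14, limma adjusted p = 0.00769), and by 0.93 within batch 2. Leaving out Tet+EGF replicate 2 gave -0.77, short of the threshold (limma adjusted p = 0.0687). PTGES3 was at 75.7 and 73.7 RPKM with EGF, between the Tet libraries and the controls. It rose by 0.39 (SE 0.09, limma adjusted p = 0.0308), and by 0.30 within batch 2. That call was lost under 12 of 22 alternatives. Among them were leaving out Tet+EGF replicate 1 or 2 (limma adjusted p = 0.187 and 0.146), control replicate 2 or 3 (0.0656 and 0.0648) or Tet replicate 2 (0.0639). Quantile, median-ratio and upper-quartile scaling (0.0507, 0.0634 and 0.0765) and the replicate block (log2 0.29, limma adjusted p = 0.267) also lost it. Under these 3 scalings and with no batch term 0 members rose and 2 fell, PLA2G4A and PTGES (limma adjusted p of PTGES = 0.0290, 0.0414, 0.0374 and 0.0406).

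PTGS2 reached 13.3 and 13.7 RPKM with EGF. This was above the Tet library of the same batch, at 2.76, and below those of batch 1, at 26.1 and 27.0. Against Tet it was higher by 2.10 within batch 2 (SE 0.10, limma adjusted p = 1.48e-05), a 4.29-fold rise that rests on 1 Tet library. In the pooled model the value was 1.28 and missed the threshold (SE 0.59, interval -0.12 to 2.67, limma adjusted p = 0.188), and leaving out Tet replicate 1 turned it to -0.37 (limma adjusted p = 0.0511). PTGES went to 8.12 and 8.94 RPKM, below all Tet and above all control libraries. It fell within batch 2 by 0.63 (SE 0.10, limma adjusted p = 0.00345), while the pooled value of -1.03 did not pass (SE 0.30, limma adjusted p = 0.0567). Without Tet replicate 1 PTGES was at -1.83 (limma adjusted p = 0.000114). That fit, which also gave the -0.37 of PTGS2, had no Tet library in batch 2. Its batch term came from the control libraries alone. Without control replicate 1 PTGES was at -0.63 (limma adjusted p = 0.00305), the same value as within batch 2.

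PTGS1 was highest of all with EGF, at 5.21 and 5.62 RPKM. It rose within batch 2 by 0.40 (SE 0.13, limma adjusted p = 0.0468), and the pooled value of 0.70 missed the threshold (SE 0.24, limma adjusted p = 0.0943). Leaving out Tet replicate 1, and with it the only Tet library of batch 2, gave 1.30 (limma adjusted p = 0.00124). PTGS2 then made up 71.8% and 71.0% of the summed RPKM of PTGS1 and PTGS2, inside the range of the controls. PTGES made up 7.39% and 8.24% of the synthase sum. PTGES2, at 26.1 and 25.9 RPKM, did not pass at -0.08 (interval -0.35 to 0.18, limma adjusted p = 0.653). PTGER4 was at 0.301 and 0.413 RPKM and HPGD at 0.0480 and 0.0210, each below every Tet library.

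Tet+EGF was compared with control to ask which genes stood apart from untreated cells when EGF was supplied. PTGES rose, as 1 of 6 members, where 16% of all genes rose and 16.2% fell. PTGES was higher by 1.93 (SE 0.30, limma adjusted p = 0.00395), by 1.53 within batch 2 and by 2.74 without control replicate 1. Within batch 2, 3 members rose and 0 fell, beside 23.5% and 28.9% of all genes. PTGS2 was higher there by 0.92 (SE 0.10, limma adjusted p = 0.000343) and PTGS1 by 0.65 (SE 0.13, limma adjusted p = 0.00472), both against 1 control library. The pooled values, 1.74 for PTGS2 (limma adjusted p = 0.061) and 0.35 for PTGS1 (limma adjusted p = 0.307), did not pass. PLA2G4A at -0.35 (limma adjusted p = 0.101), PTGES3 at -0.19 (limma adjusted p = 0.172) and PTGES2 at 0.04 (limma adjusted p = 0.828) did not pass either. Leaving out control replicate 1 left no control library in batch 2, so the batch term came from the Tet libraries alone. In that fit PTGS2 passed at 3.39 (limma adjusted p = 1.4e-05) and PTGS1 was at -0.25. PLA2G4A (-0.53, limma adjusted p = 0.0388) and PTGES3 (-0.35, limma adjusted p = 0.0146) fell there. The value of 2.74 for PTGES comes from the same fit. These 3 comparisons share libraries, so their values are set side by side and no overlap between them is given.

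Around these 8 genes lie others of eicosanoid metabolism, of which 90 symbols were listed by role. The table held 88 of them and 49 passed the filter. With Tet, 24 of the 49 rose and 6 fell (limma, median 0.35 against -0.04 over all genes), and with EGF against Tet 3 rose and 13 fell (median -0.30 against 0.02). Over all genes 26.2% rose and 29.9% fell with Tet, and 9.82% rose and 9.15% fell with EGF against Tet. For Tet+EGF against control 8 rose and 4 fell (median 0.07 against -0.01), beside 16% and 16.2% of all genes. FAAH and GPR44, which passed the filter through control libraries alone, are counted in these 4. GPR44 is also counted in the 6 that fell with Tet. The list was not tested as a set. Values of its genes are pooled over the batches, and for some the size of the Tet change differed between batches.

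Among genes of arachidonate release, 7 of 13 rose with Tet and 1 fell (all genes, 26.2% and 29.9%). PLA2G6, a calcium-independent phospholipase A2, rose by 1.20 (SE 0.17), and MGLL, which frees arachidonate from its monoglyceride, fell by 0.86 (SE 0.12). Within batches MGLL was at -0.67 in batch 1 and -1.23 in batch 2. MGLL stood at 17.8, 20.5 and 21.1 RPKM in the controls, at 7.30, 12.7 and 13.1 with Tet and at 19.6 and 19.8 with EGF, where it rose by 1.19 against Tet. PLA2G4F, a cytosolic phospholipase A2, was at 1.23 with Tet, but reached 1 RPKM in the Tet libraries alone, from 1.54 to 2.63. PLA2G4E, at 0.71 with Tet, reached 1 RPKM in Tet replicates 2 and 3 alone, at 2.28 and 2.035. Both values are tied to how the genes passed the filter. Both genes are counted in the 7 of 13 and in the 24 of 49. ABHD6, another monoglyceride lipase, fell by 1.00 against Tet. FAAH, which hydrolyses anandamide, was at -0.87 in Tet+EGF against control, and it too passed the filter through 1 group, with 1.39 and 1.15 RPKM in 2 controls. Secreted phospholipases varied in level: PLA2G2A reached at most 0.449 RPKM, and PLA2G5 was listed at 0 in each library. PLA2G12A, at 6.15 to 7.14 RPKM, and PLA2G10, at 0.470 to 2.72 RPKM, were past the filter. Neither was called with Tet, at 0.09 and 0.63 (limma adjusted p = 0.348 and 0.0708).

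Of 7 genes of re-esterification, which returns free arachidonate to lipids, 3 rose with Tet and 0 fell (all genes, 26.2% and 29.9%). ACSL1, an acyl-CoA synthetase, rose by 1.92 (SE 0.08), ACSL3 by 0.53 and MBOAT7 by 0.27. ACSL4, the synthetase that prefers arachidonate, did not pass with Tet at 0.12 (limma adjusted p = 0.353). With EGF it stood at 54.8 and 52.6 RPKM, above the 17.9 to 23.9 RPKM of the other 6 libraries, and rose by 1.31 (SE 0.14, limma adjusted p = 0.00122). ACSL1 fell by 1.60 and ACSL3 by 0.59 in the same comparison.

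Terminal synthases of other prostanoids were mostly reductases. AKR1C3, which makes prostaglandin F, went from between 6.86 and 9.17 RPKM in the controls to between 39.9 and 45.3 with Tet, a rise of 2.39 (SE 0.09, limma adjusted p = 6.97e-06). With EGF it was at 17.1 and 14.7 and fell by 1.56 against Tet, still 0.83 above control. CBR1, a carbonyl reductase that acts on prostaglandin E, rose by 1.73 with Tet and fell by 1.63 with EGF, and AKR1B1 fell by 0.73 with Tet. By batch the Tet change of CBR1 was 1.27 in batch 1 and 2.64 in batch 2. That of AKR1B1 was -0.99 in batch 1 and -0.21 in batch 2, where 1 library stood on each side. The other member of this role that rose with Tet was GSTM3, a glutathione transferase, by 0.54. PTGDS and HPGDS, the synthases of prostaglandin D, were listed at 0 in each library, and PTGIS and TBXAS1 reached at most 0.0150 and 0.0680 RPKM.

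Prostanoid receptors were scarce. Of 8 in the table besides PTGER4, 1 passed the filter, GPR44, a prostaglandin D receptor, at 1.36, 1.47 and 1.30 RPKM in controls and between 0.368 and 0.688 in the other 5 libraries. GPR44 passed the filter through the controls alone, so its log2 value of -0.85 with Tet is tied to how it entered the test. Among the EP receptors, PTGER1, PTGER2 and PTGER3 reached at most 0.0220, 0.0330 and 0.00300 RPKM, below the lowest PTGER4 value of 0.107. Of 8 genes of breakdown and transport, beside the same shares of all genes, 2 rose with Tet, AKR1C1 by 1.81 (SE 0.10) and AKR1C2 by 1.21 (SE 0.10), and 2 fell, CYP4F11, an omega-hydroxylase, by 0.99 (SE 0.12) and the prostaglandin exporter ABCC4 by 0.46 (SE 0.13). With EGF against Tet AKR1C1 fell by 1.17 and AKR1C2 by 0.97, and CYP4F11 rose by 0.62. AKR1C1, AKR1C2 and AKR1C3 are close paralogs, and reads shared between them may have been split in a way that the sources used here do not state. PTGR1, which reduces the keto products of HPGD, ranged from 22.9 to 35.6 RPKM and did not pass with Tet at -0.21. SLCO2A1, the prostaglandin uptake carrier, reached at most 0.430 RPKM.

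Among 14 tested genes listed under lipoxygenases and leukotrienes 9 rose and 1 fell with Tet (all genes, 26.2% and 29.9%). No lipoxygenase was among those that rose. EPHX2, the soluble epoxide hydrolase, rose by 1.98 (SE 0.08), GGT1 by 1.60 (SE 0.12) and GPX4, a lipid peroxide reductase, by 0.51 (SE 0.07). The gene that fell was ALOXE3, the epidermal lipoxygenase, by 0.77 (SE 0.12). ALOX15B, the other lipoxygenase past the filter, did not pass at 0.35 (limma adjusted p = 0.0733). With EGF against Tet 0 rose and 6 fell (all genes, 9.82% and 9.15%), with EPHX2 at -1.44, GGT1 at -1.43 and EPHX1 at -0.95. ALOX5, which starts leukotriene synthesis, reached at most 0.0120 RPKM.

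**Figure D4:**
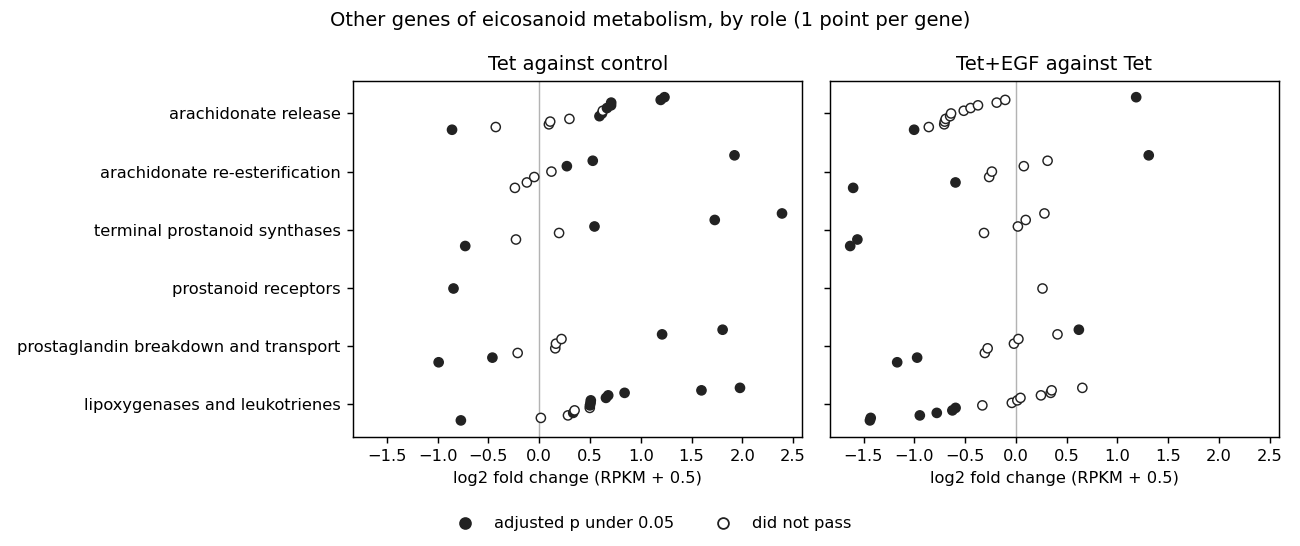
Log2 fold changes (x axis) of the 49 other eicosanoid genes past the filter, by role, for Tet against control (left) and Tet+EGF against Tet (right), 1 point per gene and filled where the adjusted p was under 0.05. More filled points lie right of 0 on the left panel, 24 against 6, and left of 0 on the right panel, 13 against 3.

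Markers of other cell types were read beside these changes. Over all genes 26.2% rose and 29.9% fell with Tet, and 9.82% rose and 9.15% fell with EGF against Tet. Of 9 fibroblast markers, DCN and COL1A1 passed the filter, and both were called higher with Tet and lower with EGF. DCN passed it through the Tet libraries alone, at 7.04 to 9.01 RPKM against at most 0.0810 elsewhere. The summed level of the list was 1.32 to 2.92 RPKM in the controls, 15.4 to 18.2 with Tet and 3.42 to 3.80 with EGF, most of it from those genes. LUM, below the filter, was at 0.187 to 0.213 RPKM with Tet, at most 0.0150 in controls and at most 0.0300 with EGF. THY1, also below it, went the other way, at 0.352, 0.228 and 0.395 RPKM in controls and 0.094, 0.069 and 0.041 with Tet. COL6A3 was at 0.022, 0.028 and 0.052 RPKM in controls and 0.005, 0 and 0 with Tet. COL1A2, COL3A1, PDGFRB and PDGFRA stayed at or below 0.0260 RPKM. Of 9 leukocyte markers, CD68 and LCP1 passed the filter, and both fell with Tet and rose with EGF. Their list summed to 47.5 to 59.1, 29.2 to 41.6 and 109 RPKM, with PTPRC at or below 0.00500 and CD207 and CD1A at 0. CD14, below the filter, was at 0.474, 0.135 and 0.127 RPKM in controls and 0.404, 0.819 and 0.728 with Tet. Of 6 endothelial markers, with a summed level of 5.87 to 10.6 RPKM, 1 of 2 tested rose and 1 fell with Tet, and PECAM1 was at 0. The melanocyte list, with 6 of 7 symbols found, had 0 genes past the filter, a summed level of 0.960 to 2.27 RPKM and TYR at 0. The part of these cells in the changes of the prostaglandin genes was not tested.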

How the data were processed

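Poly(A) RNA of 8 samples was run on a Genome Analyzer IIx with a lane for each, per the labels' protocols. Reads were aligned by TopHat 1.3.3, per the submitters' processing notes, and the authors deposited RPKM values per gene in 1 table. For the tool that counted reads, the build and the annotation, nothing is given in the sources used here.

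For the tests, limma 3.58.1 (R 4.3.3, eBayes with trend) took log2(RPKM + 0.5) of all 8 samples, with terms for group and batch, after keeping genes with at least 1 RPKM in at least 2 libraries. Batch came from the sample descriptions. Tests are two-sided, adjusted by Benjamini-Hochberg over the 12567 genes kept. A second fit with a mean for each of the group and batch combinations gave the values within batch 2 and the difference between batches, and batch 1 was also fitted alone. Exons of the 8 genes overlapped those of 0 other genes in GENCODE v29. Sequences came from RefSeq tables (GRCh38.p14).

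Deviations from group means correlated between control and Tet libraries of the same number at 0.476, 0.314 and 0.338, each over 0.1, and a fit with that number as block was run. Same-batch libraries with different numbers gave 0.272 and 0.334, so number and batch cannot be told apart. The block changed no call of the 6 genes past the filter between Tet and control.

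The named genes are the 8 members, AREG, up to 3 called genes with the smallest p per role and comparison of the eicosanoid list, and the 3 genes with the highest correlation to each called member, of which 1 is not reported here. Other genes named were chosen after their values were seen. The members and lists were chosen with earlier results of these data known. Alternatives were other pseudocounts, filters, scalings, eBayes priors and thresholds, no batch term, 2 groups only, the block, single batches and each library left out. Python 3.11.15 with pandas 2.3.3, numpy 2.4.6 and matplotlib 3.10.9 was used.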

Additional observations from a re-analysis of the deposited data

Results flagged for a closer look

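The change between Tet and control differed between batches for 3 of the 6 tested members, by a test of the difference itself. It was -2.47 for PTGS2 on the log2 scale (batch 2 minus batch 1, limma adjusted p = 0.000422), -1.21 for PTGES (limma adjusted p = 0.00244) and 0.90 for PTGS1 (limma adjusted p = 0.0131). For PTGS2 the direction turned between batches, and for PTGES both batches showed a rise. Batch 2 held 1 control and 1 Tet library, and the same test called 3351 of 12567 genes. What else differed between the batches was not tested.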

How the results depend on the processing

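Between Tet and control the calls of PTGES (2.16 to 3.36), PLA2G4A (0.39 to 0.68) and PTGES3 (-0.65 to -0.41) held under all 23 alternatives. Members called were 3 of 6, beside 56.1% of all genes. They were 5 of 8 with no filter on low values, through PTGER4 and HPGD, beside 40.7% of all genes. In batch 1 alone they were 5 of 6, beside 58.0%. With each library left out they were between 3 and 5 of 6, beside 47.9% to 63.5%. PTGS1 (0.25), PTGS2 (-1.18) and PTGES2 (-0.032) reversed within batch 2. PTGES2 against control with EGF also reversed, at -0.11 with no batch term, -0.040 with only 2 groups, -0.042 with the block and -0.040 within batch 2. Leaving libraries out gave 0 to 5 members between Tet+EGF and Tet, with PTGS2 between -0.37 and 2.10, and 1 to 4 between Tet+EGF and control, with PTGS1 between -0.25 and 0.65 and PTGES2 between -0.040 and 0.19. Both Tet+EGF libraries share their batch with 1 Tet and 1 control library. The calls among all genes with each library left out are given below, beside which these member counts should be read.

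Between Tet+EGF and Tet, 2384 genes, 2 members and 16 listed eicosanoid genes were called. Counts in that order were 4235, 5 and 22 within batch 2, 4133, 4 and 22 with only 2 groups, 1038, 1 and 10 at a threshold of 0.01, and 1163, 2 and 6 with no batch term. Without trend 1 member was called. With the replicate block they were 849, 1 and 8, and PTGES3 was at 0.29 (limma adjusted p = 0.267). For Tet+EGF against control, 4051, 1 and 12 became 6574, 3 and 21 within batch 2, 7021, 3 and 25 with only 2 groups, 1894, 1 and 2 at a threshold of 0.01, and 2896, 1 and 6 with no batch term. The replicate block gave 2295, 1 and 4, and upper-quartile scaling 2 members. For the Tet+EGF libraries the correlations by replicate number were -0.31, -0.263, -0.137 and -0.155. With 2 libraries in the group, deviations from its mean mirror each other, so these values cannot show whether the numbers were paired. The block ties replicate 2 to batch 1. With each library left out, calls ranged from 812 to 4879 genes and 8 to 28 listed genes for Tet+EGF against Tet, from 1585 to 6581 and 2 to 21 for Tet+EGF against control, and from 5997 to 7951 and 26 to 37 for Tet against control. Among genes with a mean of at least 5 RPKM, 17 of the listed genes were called in the last, where fewer are tested. The difference between batches called 1191 genes at a threshold of 0.01 against 3351, and 2262 to 3544 with a library left out. The cause of these shifts was not tested. PTGS1 was not tested among genes with a mean of at least 5 RPKM.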
